A study of Mus musculus with 11 samples.

Results

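The respiratory chain genes are the nuclear genes for the subunits of the 5 complexes of oxidative phosphorylation. They were taken by symbol from the protein-coding genes of chromosomes 1 to 19 in GENCODE vM1 on mm9, as every symbol that begins with Nduf, with Sdh and a letter from a to d, with Uqcr, with Cox and a digit from 4 to 8, or with Atp5. This gave 91 genes of 21418, on 18 chromosomes. Of these, 41 belong by symbol to complex I (NADH dehydrogenase, Nduf), 6 to complex II (succinate dehydrogenase, Sdh), 8 to complex III (cytochrome bc1, Uqcr), 18 to complex IV (cytochrome c oxidase, Cox) and 18 to complex V (ATP synthase, Atp5). By what they encode, 71 are subunits made in most cell types, 8 are isoforms restricted to certain tissues, and 10 are assembly factors or other products that share a prefix. Cox4nb is 1 of those 10, since it encodes a subunit of an endoplasmic reticulum membrane complex and no respiratory subunit. The last 2 are Atp5l-ps1, a pseudogene by its name, and a second entry named Ndufb8, so the 91 entries carry 90 symbols. Subunit genes of the X chromosome, of the mitochondrial genome or with other symbols, such as Cyc1, lie outside the rule.

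Mouse cells of a 129 X C57bl/6 background gave 11 ChIP-Seq libraries, made to follow how fast newly made histone variants enter chromatin. In 9 of them an HA antibody was used on KH2 ES cells, or on fibroblasts derived from them, that carry the M2rtTA transactivator at ROSA26 and a tetO-driven HA-tagged histone gene at Col1a1. The HA-H3.3 ES cells were sampled after 3 and 6 hours of doxycycline (Dox) at 2 µg/mL, the HA-MacroH2A2 ES cells (HA-Macro) before any Dox and at 3, 6 and 12 hours of it, and HA-Macro mouse embryonic fibroblasts (MEFs, passage 2) at the same 3 times. The other 2 libraries, 1 from each cell type, used an antibody to MacroH2A2 itself (anti-MacroH2A2). All 9 HA libraries come from cells with the transgenes, the library without Dox included. The authors describe their anti-MacroH2A2 maps as made in HA-Macro ES cells and HA-Macro MEFs too. Feeder cells were depleted from the ES cells by pre-plating, and the MEFs came from chimeric embryos and were selected with puromycin against host cells. The sources differ on the Dox state of the anti-MacroH2A2 cells, which are therefore named by antibody and cell type alone, and a MEF library without Dox was not analysed here. The cells were cycling and unsynchronised, and the files hold ChIP reads and no RNA, so cell identity could not be checked by marker transcripts. In bulk cells, fewer cells with a histone at a site and fewer such histones per cell cannot be told apart.

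Each condition has 1 library, so no test between conditions was possible. The libraries hold 6485439 to 20540691 intervals on chromosomes 1 to 19, X and Y, and every promoter level below is a number of intervals ("reads") whose midpoint lies within 600 bp of the annotated transcription start site (TSS), given as reads per 1000000 intervals of the library (RPM). RPM gives a promoter's share of its library, not an absolute amount of histone. Intervals are 95% exact Poisson for levels and 95% exact binomial for ratios, and cover counting error only, save for those of medians, which come from ranks. Member promoters hold 486 to 2980 reads in all per library, or 5.34 to 32.7 per promoter, so that single promoters are known only roughly. The HA-Macro files hold intervals of 150 bp and the HA-H3.3 and anti-MacroH2A2 files intervals of 400 bp, so levels and peak positions are not compared between these kinds as such. Of the HA-Macro ES libraries, that at 3 hours stood apart in having 0.112% of its distinct intervals on chromosome Y, against 0.0219% to 0.0244% in the others, so values of the 6 hour library are also given for the main results that rest on it.

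The complexes of the inner mitochondrial membrane pass electrons from NADH and succinate to oxygen and use the resulting proton gradient to make ATP. Their nuclear genes lie scattered over the genome and many are known targets of NRF1, GABP (an ETS factor), YY1 and ERRα. MacroH2A is a large H2A variant with a globular macro domain, known from silent chromatin, and H3.3 is deposited outside replication, at active promoters in particular.

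The promoters of the 91 genes had features in common that the symbol rule did not use. In the window from 250 bases before to 50 after the TSS, the ratio of observed to expected CpG was 0.6 or more in 68 of 91 members (74.7%), against 46.0% of all protein-coding genes, and in none of the 8 restricted isoforms, whose values ran from 0.115 to 0.564. On either strand of that window, the NRF1 motif GCATGCGC was found at 12.1% of members against 3.35% of all genes. The ETS motif CCGGAAG was found at 20.9% against 10.9%, the YY1 motif AANATGGCG at 8.79% against 3.00%, and the ERR motif CAAGGTCA at 4.40% against 1.33%. At least 1 of these 4 motifs was present at 35 members (38.5%), against 17.1% of all genes. The SP1 motif GGGCGG (47.3% against 43.7%) and TATAAA (9.89% against 13.5%) differed less, and the CRE motif TGACGTCA was found at 4.40% against 2.31%. Another gene's TSS lay close enough for the 2 promoter windows to overlap at 30 members (33.0%), against 12.9% of all genes (2756 genes). That TSS was on the opposite strand at all 30 members, and at 2423 of the 2756 genes, so this arrangement was the usual one. Among the members' partners were Mrpl47 (beside Ndufb5), Timm8b (beside Sdhd), Rps28 (beside Ndufa7) and Gabpa, which encodes the DNA-binding subunit of GABP (beside Atp5j). Reads in a shared window cannot be assigned to 1 gene. Cox4i1 and Cox4nb, the only members that share a window with each other, have their TSSs 178 bp apart and count nearly the same reads. Most of these reads thus enter the sums of all members and of complex IV at both genes, and the counting intervals treat them as separate. In HA-Macro ES cells at 3 hours the 2 genes gave 77 and 72 of the 501 reads of complex IV.

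The bases before the TSS are given for 6 members. The first 4 form 2 pairs of a ubiquitous and a tissue-restricted isoform, classes that differed in MacroH2A2 when pooled. Cox8b did not follow its class, as it was lower in MEFs than in ES cells. The last 2 members carry typical NRF1 and ETS motifs. Each of the 6 stretches is the 250 bases of mm9 that end just before the TSS, 5′ to 3′ on the gene's strand, with matches to any of the 7 motifs in capitals. Cox6a1 (chr5:115798991-115799240, minus strand) encodes the subunit 6a of most tissues, and Cox6a2 (chr7:135349881-135350130, minus strand) that of heart and skeletal muscle. Cox8a (chr19:7292107-7292356, minus strand) and Cox8b (chr7:148086346-148086595, minus strand) are the ubiquitous and the heart and muscle form of subunit 8. Atp5g2 (chr15:102501479-102501728, minus strand) encodes a c-ring subunit of ATP synthase and Uqcr11 (chr10:79869576-79869825, minus strand) a small subunit of complex III.
Cox6a1: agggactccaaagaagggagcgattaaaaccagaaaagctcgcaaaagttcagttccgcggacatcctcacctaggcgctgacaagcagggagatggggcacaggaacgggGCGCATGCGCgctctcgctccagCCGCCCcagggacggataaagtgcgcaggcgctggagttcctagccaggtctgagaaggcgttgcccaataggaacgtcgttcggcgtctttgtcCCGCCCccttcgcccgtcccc
Cox6a2: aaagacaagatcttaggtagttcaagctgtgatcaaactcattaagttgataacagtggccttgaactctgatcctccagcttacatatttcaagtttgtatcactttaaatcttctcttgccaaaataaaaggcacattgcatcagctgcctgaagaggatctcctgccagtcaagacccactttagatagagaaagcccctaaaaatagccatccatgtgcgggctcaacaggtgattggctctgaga
Cox8a: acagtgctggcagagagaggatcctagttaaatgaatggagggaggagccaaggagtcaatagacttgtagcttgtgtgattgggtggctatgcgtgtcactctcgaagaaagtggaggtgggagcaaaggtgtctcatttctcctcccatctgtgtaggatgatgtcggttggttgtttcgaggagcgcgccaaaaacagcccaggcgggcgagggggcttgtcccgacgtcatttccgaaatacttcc
Cox8b: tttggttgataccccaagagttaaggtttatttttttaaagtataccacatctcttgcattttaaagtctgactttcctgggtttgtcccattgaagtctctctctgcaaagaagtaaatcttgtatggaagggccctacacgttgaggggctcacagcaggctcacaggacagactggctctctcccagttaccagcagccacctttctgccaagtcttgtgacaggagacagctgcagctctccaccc
Atp5g2: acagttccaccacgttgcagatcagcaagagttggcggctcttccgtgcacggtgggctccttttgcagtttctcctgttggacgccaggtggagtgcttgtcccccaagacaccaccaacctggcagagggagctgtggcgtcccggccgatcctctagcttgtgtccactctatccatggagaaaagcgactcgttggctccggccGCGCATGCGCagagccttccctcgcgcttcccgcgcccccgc
Uqcr11: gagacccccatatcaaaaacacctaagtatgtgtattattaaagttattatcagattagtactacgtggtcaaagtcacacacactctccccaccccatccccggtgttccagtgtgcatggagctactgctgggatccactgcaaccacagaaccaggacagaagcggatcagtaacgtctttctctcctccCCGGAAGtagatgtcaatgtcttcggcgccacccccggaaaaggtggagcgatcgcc
The Cox6a1 stretch holds 22 CpG dinucleotides, a palindromic NRF1 match from position -139 and SP1 matches at -116 and -21. The Cox6a2 stretch holds 1 CpG and no match. The Cox8a stretch holds 11 CpGs and the Cox8b stretch 1, with no match in either. The Atp5g2 stretch has an NRF1 match from -42, and that of Uqcr11 an ETS match at -57. The stretches end at the TSS, and the window used for the motif shares above goes further. That window also held an ETS match at Cox6a1 and at Cox8a, TATAAA at Cox8b, SP1 at Atp5g2 and NRF1 at Uqcr11.

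In ES cells, member promoters held their largest share of HA-Macro reads in the 3 hour library and a smaller share in both later ones. Pooled over the 91 promoters, the level per promoter was 0.651 RPM in uninduced cells (interval 0.605 to 0.700). It was 1.52 at the 3 hour point (1.46 to 1.59), 0.940 at the 6 hour point (0.893 to 0.988) and 0.667 at the 12 hour point (0.629 to 0.707). The mean over all protein-coding promoters was 0.601, 0.996, 0.801 and 0.663 in the same 4 libraries. Members therefore stood above the genome's mean at 3 and 6 hours and close to it at 12 hours. That mean leaves out the 1% of 100 kb tiles with the highest signal without Dox. The 82 members outside these tiles had 0.617, 1.43, 0.887 and 0.629 RPM in the 4 libraries. Set against promoters of like composition, the 68 CpG-rich members (observed over expected CpG of 0.6 or more) had 1.61, 0.953 and 0.656 RPM at the 3 times, and all CpG-rich promoters 1.38, 0.982 and 0.732, so that they stood above these at 3 hours alone. The 23 CpG-poor members had 1.28, 0.899 and 0.700, above the 0.670, 0.648 and 0.605 of all CpG-poor promoters at each time. At 12 hours the 8 restricted isoforms among them had 0.870 and the other 15 had 0.609, close to all CpG-poor promoters. At 3 hours, 71 of the 91 members lay above the median protein-coding promoter (78.0%, against 48.9% of all promoters), at 6 hours 60 (65.9% against 47.3%), and at 12 hours 47 (51.6%, where 10177 of the 20760 promoters did).

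Against the library without Dox, the pooled log2 ratio of the members was 1.23 for the 3 hour library (1.11 to 1.35), 0.53 for that of 6 hours (0.40 to 0.66) and 0.03 for that of 12 hours (-0.10 to 0.17). The same ratios pooled over all protein-coding promoters were 0.73, 0.41 and 0.14. Of 79 members with at least 20 reads over both libraries, 45 were 2-fold or more higher at 3 hours than without Dox (57.0%), and 46.7% of all promoters so counted were. At 6 hours 16 of 64 were (25.0%), and 26.5% of all promoters, a share near the background. From 3 to 12 hours the pooled ratio was -1.19 (-1.30 to -1.09), a level 2.28-fold lower at 12 hours, against -0.59 for all protein-coding promoters. Of 85 members with enough reads, 56 were 2-fold or more lower at 12 than at 3 hours (65.9%), where 35.9% of all promoters were. None was 2-fold higher, where 3.25% of all promoters were. The median log2 ratio was -1.11 for the members and -0.72 for all. With the 6 hour library in place of that of 3 hours, the pooled ratio of the members to 12 hours was -0.49 (-0.61 to -0.38) against -0.27 for all, and 20 of 75 members were 2-fold or more lower (26.7%), where 11.8% of all promoters were.

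Every complex had its highest RPM at 3 hours. From 3 to 12 hours the pooled log2 ratio was -1.08 for complex I (-1.24 to -0.93), -1.54 for complex II (-1.98 to -1.11), -1.25 for complex III (-1.62 to -0.89), -1.09 for complex IV (-1.32 to -0.87) and -1.39 for complex V (-1.62 to -1.16). Each of these intervals overlaps all the others, and the differences between complexes were not tested. At 3 hours complex V had 1.77 RPM per promoter (1.62 to 1.92) and complex I 1.39 (1.30 to 1.48), and these 2 intervals do not overlap. At 6 hours they had 0.966 (0.861 to 1.08) and 0.920 (0.852 to 0.993) and at 12 hours 0.676 and 0.654, with overlapping intervals. All 17 members of complex V with enough reads were lower at 12 hours, as were all 8 of complex III and all 6 of complex II, where 78.2% of all promoters so counted were. In complex I 35 of 39 were lower and in complex IV 13 of 15. With 6 hours in place of 3 hours the 5 ratios were -0.49, -0.84, -0.45, -0.39 and -0.52 for complexes I to V, all with intervals below 0. Lower at 12 than at 6 hours were 30 of 34 members of complex I, 5 of 5 of complex II, 6 of 6 of complex III, 11 of 14 of complex IV and 12 of 16 of complex V, where 70.4% of all promoters were.

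**Figure D1:**
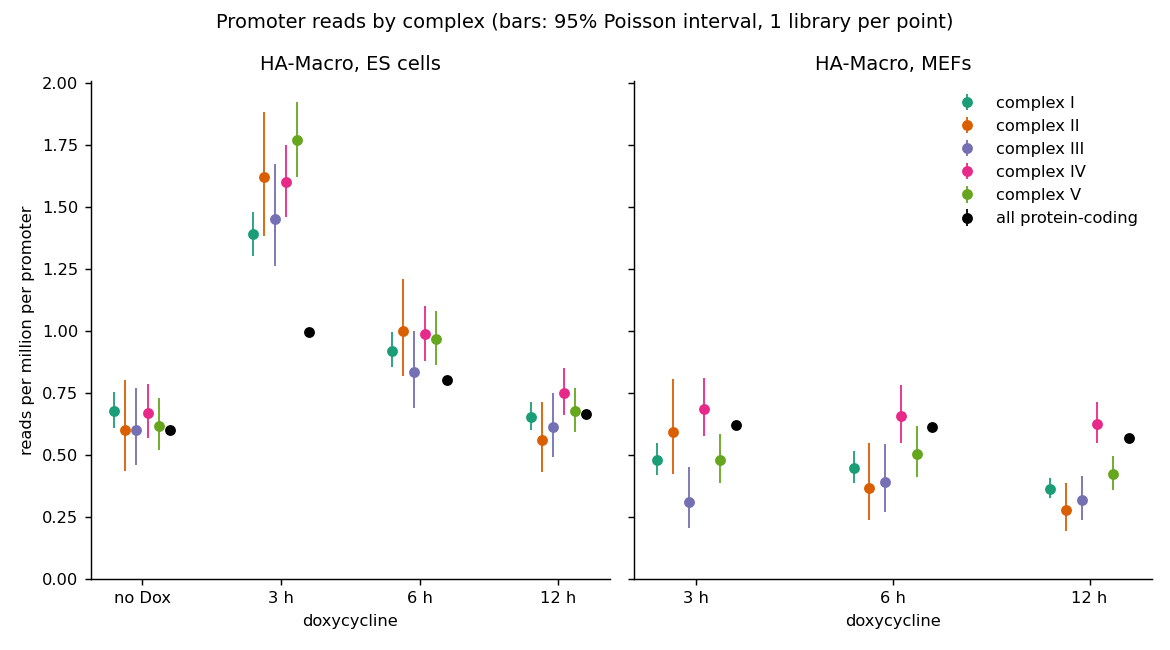
RPM per promoter in the HA-Macro time courses of ES cells (left) and MEFs (right), pooled over the members of each complex and, in black, over all protein-coding promoters; bars are 95% Poisson intervals and each point is 1 library. In ES cells every complex lies above the black point at 3 hours, and in MEFs complex IV lies highest of the complexes at each time.

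By class, the 71 ubiquitous subunits had a pooled log2 ratio from 3 to 12 hours of -1.29 (-1.41 to -1.17) and the 10 assembly factors and other products of -1.45 (-1.75 to -1.15). The 8 restricted isoforms had a ratio of -0.03 (-0.40 to 0.33). Their level per promoter was 0.539 RPM in uninduced cells and then 0.891, 0.925 and 0.870 at the 3 times. Pooled, the restricted isoforms thus had neither the high level of the other classes at 3 hours nor the lower one at 12 hours, and their interval does not overlap those of the other classes. The 6 with enough reads went both ways, from -1.29 (-2.28 to -0.38) for Cox6b2, with 34 reads at 3 hours and 15 at 12, to 0.70 for Ndufa4l2, with 21 and 37. The pooled ratio of all CpG-poor promoters, -0.15, lies inside the interval of the restricted isoforms. All 8 are among the 23 CpG-poor members. The other 15 CpG-poor members, a group formed after seeing the data, had a ratio of -1.28 (-1.55 to -1.02) and 1.48 RPM at 3 hours, near the ubiquitous subunits, and -0.54 (-0.83 to -0.25) from 6 to 12 hours. Among them are Atp5l-ps1 and entries whose RefSeq start lies over 300 bp from the TSS used (Atp5d, Atp5j2, Ndufa5 and the second Ndufb8 entry). The CpG content of these entries was thus not read at that start. Atp5d, with 71 reads at 3 hours, also lies in a tile left out of the values over all promoters. With 6 hours in place of 3 hours, the restricted isoforms had a ratio of -0.09 (-0.45 to 0.27) and the ubiquitous subunits -0.55 (-0.68 to -0.42). The assembly factors and other products had -0.65 (-0.99 to -0.32). The first interval overlaps both others, and the differences were not tested.

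The members with the lowest ratio from 3 to 12 hours were Sdha, Ndufb2 and Cox5b. Sdha, the flavoprotein subunit that oxidises succinate, had 0.718 RPM in uninduced cells and 1.15, 0.508 and 0.106 at 3, 6 and 12 hours (9, 20, 9 and 2 reads). Its log2 ratio from 3 to 12 hours was -3.44 (-6.58 to -1.39), and its TSS lies 29 bp from that of Ccdc127. Ndufb2, an accessory subunit of complex I, had 0.638, 2.41, 0.904 and 0.319 RPM in the same libraries, with a ratio of -2.92 (-4.45 to -1.68). Cox5b, a nuclear subunit of cytochrome c oxidase, had 0.559, 2.64, 0.904 and 0.372, with a ratio of -2.83 (-4.22 to -1.67). These 3 were chosen for this ratio, which favours a high value at 3 hours and a low one at 12.

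The members with the highest ratio were Ndufa4l2, Cox6a2 and Ndufb7, and the intervals of all 3 include 0. Ndufa4l2, an NDUFA4-like protein known to be induced by hypoxia, had 0.239 RPM in uninduced cells and 1.21, 1.41 and 1.97 at the 3 times, a log2 ratio from 3 to 12 hours of 0.70 (-0.11 to 1.55). Cox6a2 had 0.798, 0.690, 0.678 and 1.01 RPM, with a ratio of 0.55 (-0.57 to 1.73). Ndufb7, an accessory subunit of complex I, had 0.638, 0.575, 0.904 and 0.797, with a ratio of 0.47 (-0.78 to 1.79). Of the 3, Ndufa4l2 alone was lowest in uninduced cells and highest at 12 hours, and it lies in one of the 100 kb tiles left out of the values over all promoters because of high signal without Dox. Over all 85 members with enough reads, the counting interval lay below 0 in 52, where it did in 33.6% of all promoters so counted, and above 0 in none. From 6 to 12 hours it lay below 0 in 12 of 75, against 8.06% of all promoters, and above 0 in none.

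**Figure D2:**
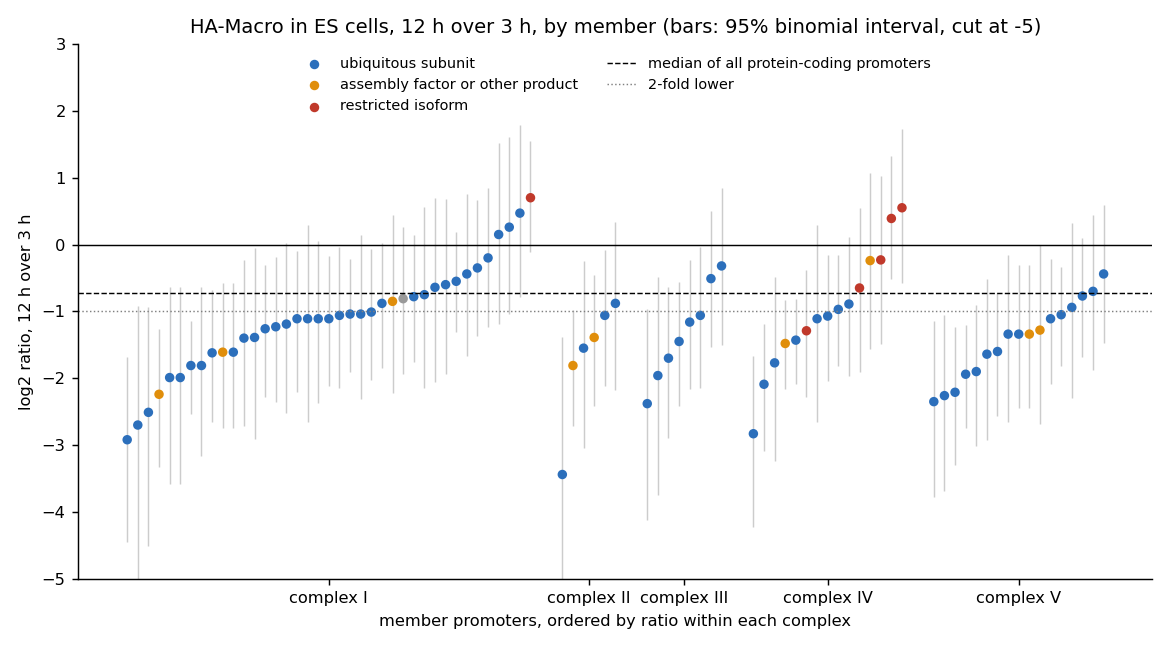
Log2 ratio of HA-Macro in ES cells, 12 over 3 hours, for each of the 85 members with at least 20 reads, ordered within each complex; bars are 95% binomial intervals, cut at the lower edge of the plot, the dashed line is the median of all protein-coding promoters (-0.72) and the dotted line marks 2-fold lower. Most points lie below the dashed line, and 5 of the 6 restricted isoforms (red) lie above it.

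From no Dox to 3 hours, the highest ratios belonged to members with few reads in the library without Dox. Sdhd, a membrane anchor of succinate dehydrogenase, had 2 reads without Dox and 27 at 3 hours, a log2 ratio of 3.28 (1.29 to 6.40). Cox8a had 2 and 24 reads, a ratio of 3.11 (1.10 to 6.24), and Uqcrfs1, the Rieske iron-sulfur protein of complex III, had 3 and 30 reads, a ratio of 2.85 (1.16 to 5.20). The lowest ratios were those of Cox6a2 and Cox7a2l, a supercomplex assembly factor, both -0.21 (-1.55 to 1.16), and of Sdhc, at -0.09 (-1.22 to 1.08). Of 79 members, the interval lay above 0 in 39, against 35.1% of all promoters, and below 0 in none. With 6 in place of 3 hours it lay above 0 in 11 of 64, against 15.1% of all promoters, and below 0 in none. At 6 hours Sdhd, Cox8a and Uqcrfs1 had 16, 17 and 13 reads.

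Around the start site, HA-Macro at members formed a peak downstream of the TSS and a trough just before it. Profiles were read in bins of 200 bp relative to the mean from 4 to 2 kb upstream. In ES cells the highest bin, centred 300 bp after the TSS, had a log2 ratio of 1.59 in the 3 hour library (1.46 to 1.72), 1.00 in that of 6 hours (0.83 to 1.16) and 0.63 in that of 12 hours (0.44 to 0.81). All protein-coding genes had 1.26, 0.78 and 0.51 there. The bin just upstream of the start site was at 0.04 in the 3 hour library (-0.17 to 0.25), at -0.31 in that of 6 hours (-0.55 to -0.07) and at -1.01 in that of 12 hours (-1.33 to -0.71). In that bin all protein-coding genes had 0.32, 0.10 and -0.21. Without Dox the members had 0.05 there (-0.27 to 0.36) and all genes 0.27. Members thus held fewer reads than their own flanks just before the TSS at 12 hours, at a level of 92 reads over the 91 promoters. Genes with Rpl and Rps symbols had -1.18 (-1.45 to -0.92) in that bin at 12 hours, and those with Mrpl and Mrps symbols -0.62 (-0.93 to -0.32).

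**Figure D3:**
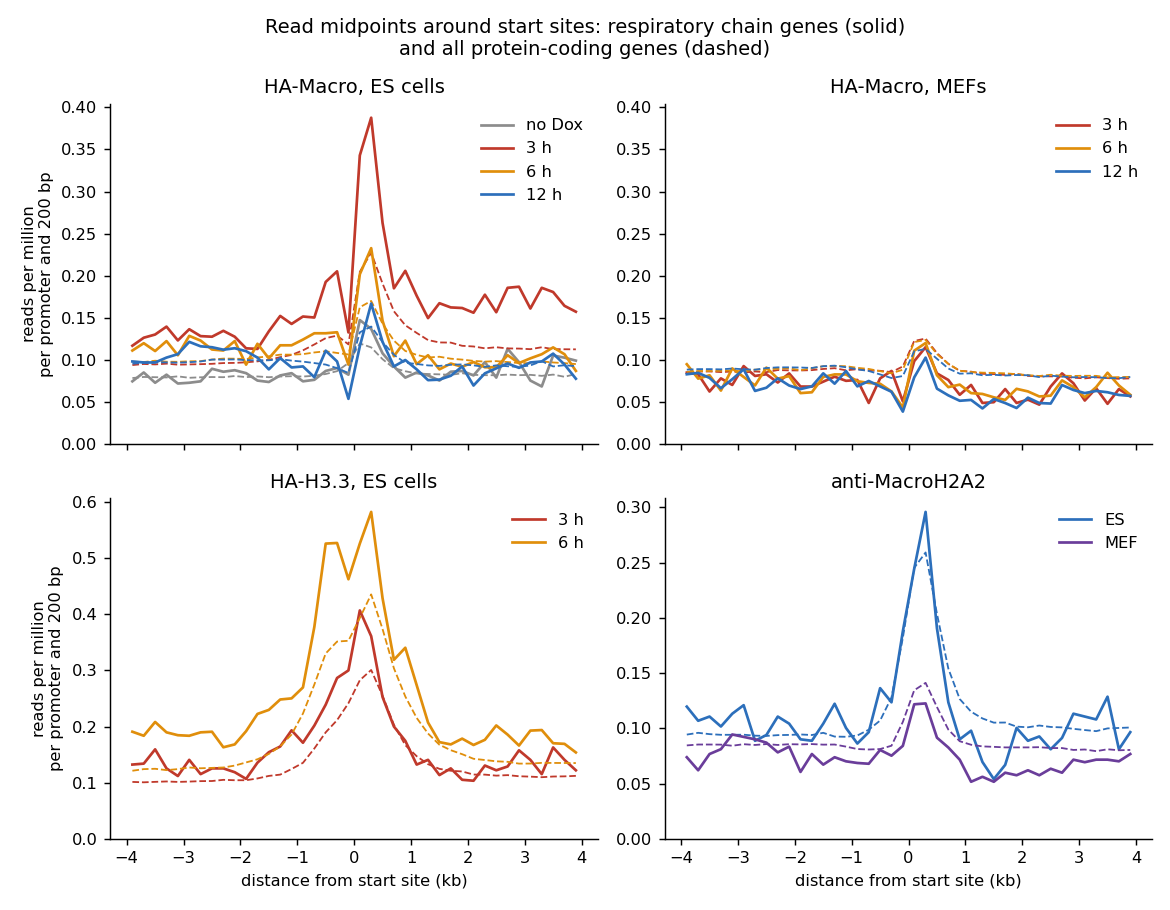
RPM per promoter and 200 bp bin from 4 kb before to 4 kb after the TSS, for the 91 members (solid) and all protein-coding genes (dashed), by library; the 2 upper panels share 1 scale. In the HA-Macro panels the solid lines dip in the bin just before the TSS, below the dashed line of the same library except in ES cells at 3 hours, and the ES line at 3 hours has the highest peak after it.

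In MEFs, members lay below the mean of all promoters at each time. The pooled HA-Macro level per member promoter was 0.513 RPM in the 3 hour library (0.470 to 0.559), 0.490 in that of 6 hours (0.448 to 0.536) and 0.417 in that of 12 hours (0.388 to 0.447), against 0.621, 0.611 and 0.567 over all protein-coding promoters. Of the 91 members 34, 32 and 30 lay above the median protein-coding promoter (37.4%, 35.2% and 33.0%), where, because of ties, 43.2%, 48.5% and 47.0% of all promoters did. The CpG-rich members had 0.479, 0.440 and 0.362 RPM, and all CpG-rich promoters 0.632, 0.617 and 0.531. The CpG-poor members had 0.613, 0.638 and 0.578, close to the 0.612, 0.607 and 0.598 of all CpG-poor promoters. This joins the 8 restricted isoforms, with 0.810, 0.906 and 0.931, and the other 15, which lay below all CpG-poor promoters with 0.509, 0.496 and 0.389. Just upstream of the start site the members' log2 ratio to the flank was -0.64 in the 3 hour library (-1.08 to -0.24), -0.89 in that of 6 hours (-1.37 to -0.45) and -0.97 in that of 12 hours (-1.34 to -0.63). All genes had 0.10, 0.01 and -0.15 there, so that the trough was deeper at members than at all genes in each of the 3 libraries. It was not particular to the members. Genes with Mrpl and Mrps symbols had -0.44, -0.64 and -1.15 in that bin, and those with Rpl and Rps symbols -0.17, -0.61 and -0.78.

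From 3 to 12 hours in MEFs the pooled ratio of the members was -0.30 (-0.46 to -0.14), against -0.13 for all promoters. For the 61 members with a window of their own it was -0.15 (-0.35 to 0.05), an interval that includes both 0 and the value of all promoters. Reads were few, and only 15 members had 20 or more over both libraries. Among these, 1 was 2-fold or more lower at 12 hours (6.67%) where 5.21% of all promoters were, and 2 were 2-fold or more higher (13.3%) where 5.04% were. With a minimum of 5 reads 24 of 89 were 2-fold or more lower (27.0%), where 14.7% of all promoters were. The lower one was Cox8b, with 15 reads at 3 hours, 7 at 6 hours and 11 at 12 hours, a log2 ratio from 3 to 12 hours of -1.31 (-2.58 to -0.09). Next lowest were Ndufaf3, an assembly factor of complex I, at -0.97 (-2.13 to 0.19), and Cox4i1, at -0.74 (-2.05 to 0.58). The higher ones were Cox8c, a testis form of subunit 8, with 5, 8 and 21 reads and a ratio of 1.20 (-0.24 to 2.97), and Cox6a2, with 10, 14 and 38 reads and a ratio of 1.06 (0.03 to 2.23). Ndufa4l2 followed with 7, 16 and 21 reads and a ratio of 0.72 (-0.57 to 2.20).

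Set beside ES cells at the same time of Dox, members were lower in MEFs, and the gap was widest early. The pooled log2 ratio of MEFs to ES cells was -1.57 (-1.71 to -1.44) for the 3 hour libraries, -0.94 (-1.09 to -0.79) for those of 6 hours and -0.68 (-0.81 to -0.55) for those of 12 hours, against -0.68, -0.39 and -0.23 over all promoters. At 3 hours 55 of 71 members were 2-fold or more lower in MEFs (77.5%), and 51.6% of all promoters were. At 6 hours 21 of 50 were (42.0%), and 31.1% of all promoters were. At 12 hours 15 of 43 were (34.9%), and 21.2% of all promoters were. By complex the 3 hour ratio was lowest in complex III, at -2.22 (-2.85 to -1.65), and highest in complex IV, at -1.22 (-1.50 to -0.95). At 6 hours it was lowest in complex II, at -1.44 (-2.15 to -0.79), and again highest in complex IV, at -0.58 (-0.89 to -0.28). Complex IV holds 7 of the 8 restricted isoforms. At 3 hours its 9 ubiquitous subunits had 2.00 RPM in ES cells and 0.562 in MEFs, a larger fold than the 1.38 and 0.456 of the 35 ubiquitous subunits of complex I. At 6 hours its fold was the smaller one, with 1.03 and 0.540 against 0.925 and 0.412. The same held at 12 hours, with 0.714 and 0.422 against 0.633 and 0.348. These differences were not tested.

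Anti-MacroH2A2, which reads the protein whatever its age and tag, gave the members a level near the mean of all promoters in ES cells and below it in MEFs. The pooled level per member promoter was 1.18 RPM in ES cells (1.11 to 1.26) and 0.575 in MEFs (0.536 to 0.617), against 1.13 and 0.666 for all promoters. The 82 members outside the discarded tiles, which are left out of the values over all promoters, had 1.11 and 0.563. The CpG-rich members were lower than promoters of like composition in both cell types. They had 1.22 RPM in ES cells (1.13 to 1.32) and 0.532 in MEFs (0.488 to 0.579), and all CpG-rich promoters 1.48 and 0.726. The CpG-poor members were higher, at 1.06 (0.920 to 1.21) and 0.703 (0.617 to 0.798), against 0.828 and 0.616 for all CpG-poor promoters. In MEFs the 8 restricted isoforms among them had 1.02, and the other 15 had 0.533, lower than all CpG-poor promoters. In ES cells the median member stood 0.17 above the median protein-coding promoter on the log2 scale, with an interval of 0.00 to 0.46 from the ranks of the 91 members. This difference was 0.00 with windows of 300 or 1000 bp, with the first transcript's start and with the RefSeq start, so the members' median could not be told from that of all promoters. The pooled log2 ratio of MEFs to ES cells was -1.04 (-1.18 to -0.90), against -0.76 for all. Of 36 members with enough reads 17 were 2-fold or more lower in MEFs (47.2%), and 45.2% of all promoters were, so the members' share was near that of the background.

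The members highest in anti-MacroH2A2 of ES cells differed by complex. Ndufa13 (GRIM-19), a complex I subunit whose window overlaps that of Tssk6, had 3.63 RPM, the most of all members, and 1.41 in MEFs. Sdhaf1, an assembly factor of complex II, had 2.57 and 0.604, Uqcrc1, a core subunit of complex III, 1.76 and 0.604, Cox4nb 2.93 and 0.738, and Atp5s, a factor linked to ATP synthase coupling, 3.16 and 1.14. These 5 were chosen as the highest in ES cells, which favours a lower second value, and all 5 were lower in MEFs, as were 83 of the 91 members and 74.6% of all promoters. At the other end, Cox7b2, a testis form of subunit 7b, had 0 reads in ES cells, which allows up to 3 reads or 0.351 RPM, and 9 reads (0.604) in MEFs. The lowest members of the other complexes were Ndufaf1 (3 reads), Sdhd (7 reads), Uqcrb (3 reads) and Atp5l-ps1 (2 reads).

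The lowest ratios of MEFs to ES cells were those of Sdhaf1 at -2.09 (-3.39 to -0.92), Ndufb9, a complex I subunit, at -2.08 (-3.59 to -0.74), and Cox4i1 at -2.07 (-3.29 to -0.95). The highest were those of Ndufb2 at 0.78 (-0.75 to 2.60), Atp5k, subunit e of ATP synthase, at 0.20 (-1.21 to 1.75), and Cox6a2 at 0.06 (-0.87 to 1.04). Over the 36 members the counting interval lay below 0 in 14, where it did in 35.5% of all promoters so counted, and above 0 in none.

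**Figure D4:**
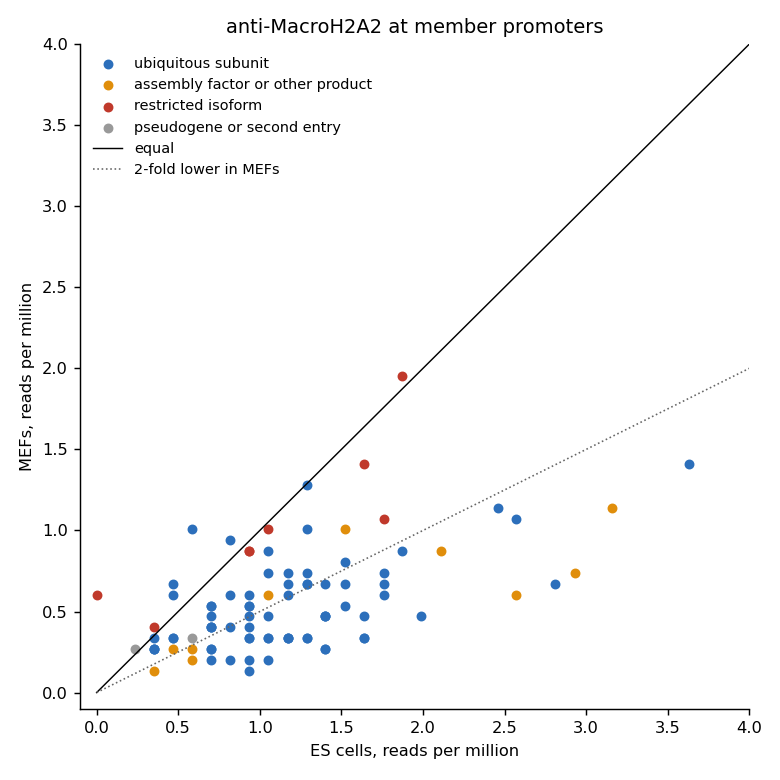
Anti-MacroH2A2 RPM at each of the 91 member promoters in ES cells (horizontal) against MEFs (vertical); the solid line marks equal levels and the dotted line a 2-fold lower level in MEFs. Most points lie below the solid line, and the restricted isoforms (red) lie nearer the solid line.

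The tissue-restricted isoforms and their ubiquitous partners parted in MEFs. The partners are Cox4i1, Cox6a1, Cox6b1, Cox7a2, Cox8a and Ndufa4, and the restricted forms Cox4i2 (lung), Cox6a2 and Cox7a1 (heart and muscle), Cox6b2 (testis), Cox8b, Cox8c, Cox7b2 and Ndufa4l2. In ES cells of the HA-Macro line the 6 partners had 0.519, 1.70, 1.07 and 0.752 RPM per promoter at no Dox, 3, 6 and 12 hours, and the 8 restricted forms 0.539, 0.891, 0.925 and 0.870. Cox4i1 alone gave 77 of the partners' 178 reads at 3 hours and 31 of their 85 at 12 hours. It shares its window with Cox4nb and lies in a tile left out of the values over all promoters. At 3 hours the median partner had 1.09 RPM and the median restricted form 0.833. In HA-Macro MEFs the partners had 0.444, 0.444 and 0.365 after 3, 6 and 12 hours, and the restricted forms 0.810, 0.906 and 0.931. At each of the 3 MEF times the interval of the restricted forms lay wholly above that of the partners.

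The ratio of MEFs to ES cells at 12 hours was -1.04 for the partners (-1.60 to -0.51) and 0.10 for the restricted forms (-0.25 to 0.45). In anti-MacroH2A2 it was -1.17 (-1.73 to -0.62) and -0.06 (-0.49 to 0.38). The 6 partners are CpG-rich and the 8 restricted forms CpG-poor, and over all promoters these kinds had ratios of -0.46 and -0.02 at 12 hours and of -1.03 and -0.43 in anti-MacroH2A2, the same order. The part of CpG content in the contrast was not tested. The antibody to the protein itself and the HA antibody thus gave the same order in separate libraries. At 12 hours Cox6a2 had 1.85 RPM in MEFs and 1.01 in ES cells, a log2 ratio of 0.87 (0.04 to 1.75), and its partner Cox6a1 had 0.730 and 1.12, a ratio of -0.61 (-1.67 to 0.41). Cox4i2 had 1.41 and 0.637, a ratio of 1.15 (0.13 to 2.25), and its partner Cox4i1 had 0.584 and 1.65, a ratio of -1.49 (-2.59 to -0.49). Cox8c had 1.02 and 0.478, a ratio of 1.10 (-0.09 to 2.41), and Cox6b2 0.925 and 0.797, a ratio of 0.22 (-0.84 to 1.30).

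Not every restricted form followed. Cox8b had 0.536 RPM in MEFs and 1.43 in ES cells at 12 hours, a ratio of -1.42 (-2.58 to -0.36), and Ndufa4l2 had 1.02 and 1.97, a ratio of -0.94 (-1.79 to -0.13). Of Cox7a1 there were 8 reads in MEFs and 11 in ES cells, and of Cox7b2 6 and 1. The partner Cox7a2 had 0 reads in MEFs at 12 hours, 5 in ES cells, and 1 and 3 reads in MEFs at 3 and 6 hours. The partners Cox6b1, Cox8a and Ndufa4 had 5, 10 and 3 reads in MEFs and 7, 14 and 7 in ES cells, with intervals that include 0.

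**Figure D5:**
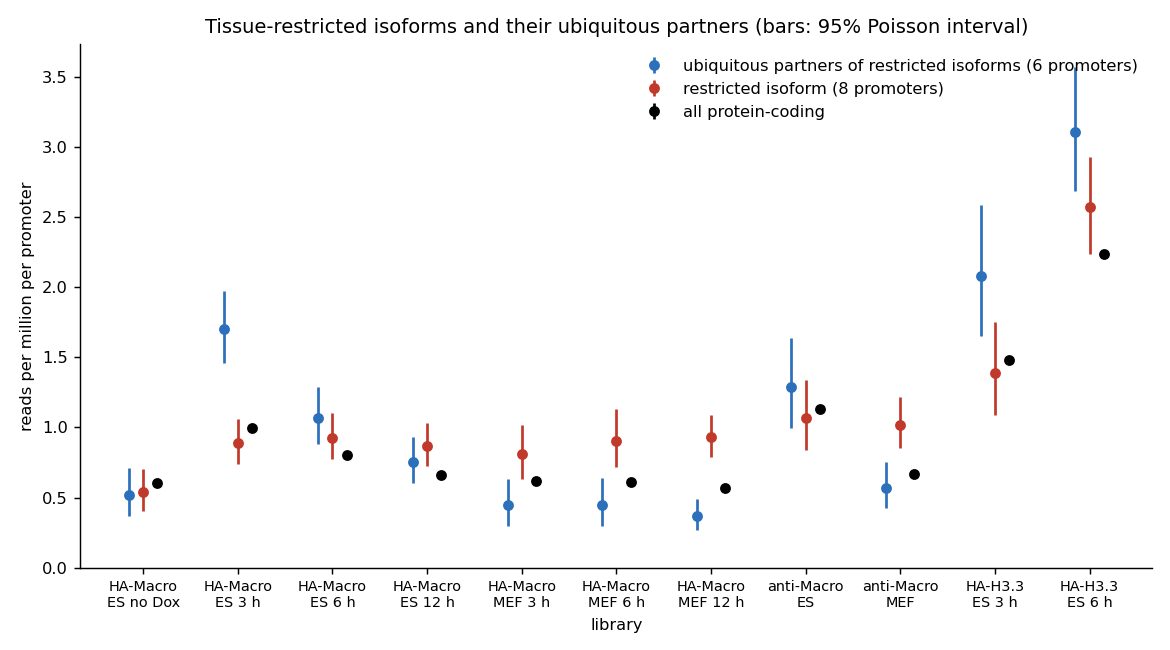
RPM per promoter in all 11 libraries, pooled over the 6 ubiquitous partners (blue), the 8 restricted isoforms (red) and all protein-coding promoters (black); bars are 95% Poisson intervals. Among the HA-Macro libraries the blue points lie highest in ES cells at 3 hours, and they are the lowest of the 3 colours in every MEF library.

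Complex II is small enough to be followed gene by gene in HA-Macro ES cells, here in the order no Dox, 3, 6 and 12 hours. Sdhb, the iron-sulfur subunit, had 0.798, 1.09, 1.02 and 0.372 RPM, and Sdhc, a membrane anchor, 1.04, 0.977, 0.847 and 0.531. Sdhd had 0.160, 1.55, 0.904 and 0.744. Of the assembly factors, Sdhaf1 had 0.559, 2.99, 1.36 and 0.850 and Sdhaf2, which helps attach FAD to SDHA, 0.319, 1.95, 1.36 and 0.744. From 3 to 12 hours all 6 genes of the complex were lower, 5 of them 2-fold or more, where 35.9% of all promoters were, and Sdhc was the exception at a log2 ratio of -0.88 (-2.17 to 0.33). From 6 to 12 hours the 5 genes with enough reads were all lower, and 1 of them, Sdhb, was so 2-fold or more, where 11.8% of all promoters were. In MEFs the 6 promoters had 0.592, 0.367 and 0.276 RPM each after 3, 6 and 12 hours, and with anti-MacroH2A2 1.35 RPM in the ES library and 0.403 in that of MEFs, where none of the 6 lay above the median protein-coding promoter and 43.1% of all promoters did.

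HA-H3.3 at member promoters of ES cells was above the mean of all promoters. The pooled level per promoter was 1.85 RPM after 3 hours (1.74 to 1.96) and 3.05 after 6 hours (2.95 to 3.17), against 1.48 and 2.24 over all promoters, and 62 of the 91 members lay above the median promoter in each library (68.1%), where 48.3% and 49.8% of all promoters did. The CpG-rich members had 1.95 (1.82 to 2.08) and 3.22 RPM (3.09 to 3.35), and all CpG-rich promoters 2.13 and 3.35, the first above the members' interval and the second at its upper bound. The CpG-poor members had 1.56 (1.36 to 1.77) and 2.56 (2.37 to 2.77), above the 0.932 and 1.29 of all CpG-poor promoters. The members outside the discarded tiles had 1.73 and 2.80. At 6 hours the median member stood 0.56 above the median protein-coding promoter on the log2 scale, with an interval of 0.28 to 0.80 from the ranks of the 91 members. Outside the discarded tiles this difference was 0.45. The pooled log2 ratio of 6 to 3 hours was 0.73 for members (0.63 to 0.83) and 0.60 for all. Of 79 members with enough reads 22 were 2-fold or more higher at 6 hours (27.8%), where 26.9% of all promoters were, a share near the background. The restricted isoforms had 1.39 and 2.57 RPM, a pooled ratio of 0.89 (0.50 to 1.29), and the ubiquitous subunits 1.84 and 2.97, a ratio of 0.69 (0.57 to 0.80), with overlapping intervals.

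The highest H3.3 level at 6 hours was that of Ndufaf3, with 14.4 RPM (154 reads), after 6.48 at 3 hours. It was followed among the leaders of each complex by Atp5d, the delta subunit of ATP synthase, at 6.62, Uqcr11 and Cox6b2, both at 5.88, and Sdhaf2 at 5.60. Ndufaf3, Atp5d and Uqcr11 lie in discarded tiles, and the RefSeq start of Atp5d lies 3643 bp from the TSS used, outside the window counted. Cox6b2 is a restricted isoform with a CpG ratio of 0.432. The lowest of each complex, in the order I to V, were Ndufa5 (0.653), Sdhc (2.15), Uqcrfs1 (1.40), Cox7b2 (0.0933) and Atp5l-ps1 (0.560).

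From 3 to 6 hours the highest ratios were those of Atp5sl, with 1 and 19 reads, at 3.52 (0.87 to 8.90), Ndufs6, an accessory subunit of complex I, with 5 and 47 reads, at 2.51 (1.18 to 4.20), and Uqcr11, with 11 and 63 reads, at 1.79 (0.86 to 2.87). The lowest were those of Atp5f1, a stator subunit of ATP synthase, and Cox8b, each with 12 and 13 reads, at -0.61 (-1.86 to 0.65), and of Ndufb2, at -0.48 (-1.51 to 0.58). The counting interval lay above 0 in 28 of the 79 members, where it did in 29.4% of all promoters so counted, and below 0 in none.

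The ratio of 12 to 3 hours of HA-Macro in ES cells was set beside that of other gene lists, to see where the members differ. From 3 to 12 hours the pooled log2 ratio was -1.08 for 138 genes whose symbols begin with Rpl or Rps and a digit (-1.17 to -0.99). For 77 Mrpl and Mrps genes, of the mitochondrial ribosome, it was -1.10 (-1.22 to -0.99), against -1.19 for the members. Both lists were taken by symbol alone, so the first is not limited to proteins of the cytosolic ribosome. The shares 2-fold or more lower were 59.6% and 60.9%, against 65.9% of the members and 35.9% of all promoters. The intervals of both lists overlap that of the members, and the differences were not tested. With 6 hours in place of 3 hours the ratios were -0.42 for both lists and -0.49 for the members. Of 11 citric acid cycle genes with enough reads 9 were 2-fold or more lower, where 35.9% of all promoters were, and none higher, with a pooled ratio of -1.46 (-1.77 to -1.17). From 6 to 12 hours it was 5 of 10, where 11.8% of all promoters were 2-fold or more lower, with a ratio of -0.72 (-1.05 to -0.39). Of 13 other respiratory genes, such as cytochrome c and the assembly factors of cytochrome c oxidase, 2 were 2-fold lower, with a ratio of -0.80 (-1.05 to -0.56), and of 10 regulators of mitochondrial biogenesis 6 were, with a ratio of -1.01 (-1.29 to -0.74). From 6 to 12 hours none of either list was 2-fold lower, with ratios of -0.26 (-0.52 to 0.01) and -0.49 (-0.79 to -0.20).

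CpG content and shared windows moved with the share of promoters 2-fold or more lower at 12 than at 3 hours, while from 6 to 12 hours the order of these shares among the members was the opposite, on few promoters, and that of the pooled ratios was not. Among all protein-coding promoters 47.9% of the CpG-rich ones and 18.4% of the others were 2-fold or more lower at 12 than at 3 hours. Among the members it was 47 of 65 CpG-rich promoters (72.3%) and 9 of 20 others (45.0%). The pooled ratio of the CpG-rich members was -1.29 (-1.41 to -1.18), against -0.92 for all CpG-rich promoters, and from 6 to 12 hours -0.54 (-0.67 to -0.41) against -0.43. Of all promoters that share a window 54.0% were 2-fold or more lower, and of the 30 members that do 23 were (76.7%). Members with a window of their own had 33 of 55 (60.0%), and the share of all promoters with a window of their own was not calculated. With 6 hours in place of 3 hours, 14 of 58 CpG-rich members (24.1%) and 14.8% of all CpG-rich promoters were 2-fold or more lower, as were 6 of 26 members that share a window (23.1%) and 15.8% of all promoters that do. The other strata had 6 of 17 CpG-poor members (35.3%) against 7.69% of all, and 14 of 49 members with a window of their own (28.6%), again without a share of all promoters. The pooled ratio from 6 to 12 hours was -0.36 (-0.59 to -0.14) for the CpG-poor members, -0.56 (-0.75 to -0.37) for those that share a window and -0.46 (-0.60 to -0.32) for those with their own, and each of these intervals overlaps that of its counterpart. In each of these strata with a value for all promoters the members' share was the higher one. The part of CpG content and of shared windows in the result was not tested.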

How the data were processed

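The authors aligned reads to mm9 with bowtie (version 1.0 in the submitters' processing notes), allowing 1 mismatch and placing reads with several matches at 1 random location, after collapsing reads of the same sequence with the number of occurrences kept. Reads of subunit genes and their processed pseudogene copies can be exchanged. The deposited files hold no counts but 1 interval per read, with no score. The labels say that each anti-MacroH2A2 library combines 2 replicates. Interval midpoints within 600 bp of the 5′ end of each GENCODE vM1 gene were counted and divided by the intervals on chromosomes 1 to 19, X and Y, in units of 1000000. Repeated intervals (3.27% to 6.00% in HA-Macro, 0.462% to 0.693% in the others) were kept. Values over all protein-coding promoters are for the 20760 genes outside the 1% of 100 kb tiles with the highest signal without Dox. Of the members, 9 lie in such tiles and were kept; without them 49 of 76 were 2-fold or more lower in HA-Macro ES cells at 12 than at 3 hours (64.5%). Ratios used promoters with at least 20 reads over both libraries. Promoters that reach this count mainly through the higher library are among them, so counts describe those that passed and not all members. Counting was tested on simulated data. Python 3.11.15, numpy 2.4.6 and scipy 1.17.1 were used.

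The members and lists were chosen with earlier results of these data known. Genes named are the 3 highest and 3 lowest ratios of each main comparison, the highest and lowest level in each complex for anti-MacroH2A2 in ES cells and HA-H3.3 at 6 hours, the isoform pairs, complex II and members that share a window. The alternatives were distinct intervals, coverage in place of midpoints, windows of 300 and 1000 bp, scaling outside the discarded tiles, the first transcript's start, members with a window of their own, 6 hours in place of 3 hours, minimums of 5 and 50 reads, omission of assembly factors and restricted isoforms, and the RefSeq start. Each library stands alone, so spread between replicates is unknown.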

Additional observations from a re-analysis of the deposited data

How the results depend on the processing

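No paired analysis was possible because each condition has 1 library and no replicate numbers are shared. Of 95 recalculations of 10 results, 74 stayed within the result's interval (from counting, or from ranks for medians) or within 1.5 times the count, 21 moved and none changed direction. The cause of these shifts was not tested. Pooled log2 ratios: with a 300 bp window HA-H3.3 from 3 to 6 hours was 0.57 and HA-Macro in ES cells from 3 to 12 hours -1.40. With a 1000 bp window anti-MacroH2A2 of MEFs over ES cells was -0.86. The median of members over that of all promoters in anti-MacroH2A2 of ES cells was 0.17 on the log2 scale, 0.11 by coverage and 0.00 with a 300 or 1000 bp window, the first transcript's start or the RefSeq start. With only members that have a window of their own HA-Macro in MEFs from 3 to 12 hours was -0.15 (-0.35 to 0.05) in place of -0.30, anti-MacroH2A2 of MEFs over ES cells -0.89, and HA-Macro in ES cells at 3 hours over no Dox 1.07. With 6 in place of 3 hours the latter was 0.53 and the ratio to 12 hours -0.49. The count of members 2-fold or more lower in HA-Macro ES cells was 29 of 35 with 300 bp, 33 of 55 with own windows, 20 of 75 with 6 hours and 14 of 17 with at least 50 reads. In HA-Macro MEFs, where it was 1 of 15, it was 2 of 15 by coverage, 0 of 2 with 300 bp, 4 of 48 with 1000 bp, 2 of 14 with 6 hours, 24 of 89 with at least 5 reads and 2 of 14 with the RefSeq start, and no member had 50 reads. For anti-MacroH2A2 it was 4 of 5 with 300 bp, 11 of 25 with own windows, 46 of 91 with at least 5 reads and 1 of 1 with at least 50. Of all promoters, 11.8% were 2-fold or more lower with 6 hours in ES cells and 14.7% with at least 5 reads in MEFs. The other counts are given without the share of all promoters at the same setting, so they cannot be read against a background. The RefSeq start was placed for 71 members, lay within 110 bp of the TSS used in 65 and over 300 bp away in 6 (Atp5d, Ndufa13, Atp5j2, Ndufs7, Ndufa5 and the second Ndufb8 entry), and was chosen as an alternative after seeing the data. With 5.34 to 32.7 reads per member and library, 2-fold differences at single members are often within counting error.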
